A study of Mus musculus with 2 samples.

Results

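The genes described here are those of the interleukins and the interleukin receptors. They were taken by name from the scanner files of 2 mouse arrays: every probe that is not a control and whose gene name starts with Il and a number, apart from Il8ra and Il8rb, which encode chemokine receptors. This gave 82 genes on 123 probes and 186 spots, of 27577 gene names, 41165 probes and 43379 spots on the array. By role, 39 encode ligands or soluble antagonists shaped like a ligand, 42 encode receptor chains or decoy receptors, and Il4i1 encodes an amino acid oxidase. Names are those of the array, so that Il1f5, Il1f6, Il1f8 and Il1f9 stand for the IL-36 receptor antagonist and IL-36α, β and γ, Il1f10 for IL-38, and Il28 and Il28ra for an interferon lambda and its receptor chain.

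The study asked which transcripts of back skin were affected when FGF18, a secreted fibroblast growth factor, was delivered locally while hair follicles were growing. Both groups were male C3H/HeN mice, 61 days old, in which depilation of the back had set off anagen, in which hairs grow. On day 4 of this anagen they received 1 µg of FGF18 protein, or PBS (phosphate-buffered saline) in its place, under the skin, and skin of full thickness was collected 24 h later, 5 days after depilation. All mice therefore carried a recent depilation and an injection, and the labels name no transgene. Poly(A) RNA of each group was hybridised to 1 single-colour Agilent whole-genome array. The labels name 3 mice without saying whether per group, and the design text speaks of RNA pooled by group where the extraction protocol speaks of separate mice. The title of the PBS sample holds the word telogen, the resting phase, while its source name and hair cycle entry say anagen.

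Interleukins are secreted messengers by which immune cells, keratinocytes and fibroblasts act on each other, and most are read by receptors made of a ligand-binding chain and a signalling chain that several cytokines share. Receptors of the IL-1 and IL-17 families work through adaptor proteins to NF-κB, whereas those of the common gamma chain, IL-6, IL-12 and IL-10 families work through JAK kinases and STAT factors. Skin is a rich source of the IL-1 family: keratinocytes hold IL-1α, IL-18, IL-33, the IL-36 proteins and their natural antagonists, which can be set free when the barrier is damaged.

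With 1 array per group, no difference below has a replicate check and none was tested; the number of arrays limits the precision. Each value is the processed signal of a probe or gene, given for FGF18 before PBS, and each ratio is the log2 difference, FGF18 minus PBS, after each array was divided by its 75th percentile signal (1020 for FGF18 and 899 for PBS). A gene counted as measured where it was well above background on both arrays, as 16611 genes were (60.2%). The median of their log2 ratios was -0.07, with an SD of 0.40, so that ratios near -0.07, rather than near 0, were in the middle of the distribution, and without scaling the median was 0.11. Technical error was available from 2 sources: the SD of single spots of a probe printed many times had a median of 0.11 in dim and 0.026 in bright probes on the log2 scale, and the SD between probes of a gene had a median of 0.13 over 5737 genes. Of the named skin cell types, keratinocytes (4 of 4 markers), hair follicle (7 of 7) and dermal fibroblasts (5 of 5) had their markers measured on both arrays. None of the members' spots was saturated.

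Of the 82 genes, 53 (64.6%) were measured on both arrays and 23 on neither. A further 4 of the 82 were measured only after FGF18, as were 2.21% of all gene names on the array. Only after PBS, 2 of the 82 were measured, as were 1.46% of all gene names. At least 2-fold higher on the FGF18 array were 4 of the 53 (7.55%), all of them receptors or decoys: Il1rl1, Il18bp, Il2rb and Il10ra. For comparison, 1.54% of all measured genes passed that fold. At least 2-fold lower was 1 of the 53, Il1a (1.89%), against 0.987% of all genes. With normexp background correction, which draws dim signals together, Il2rb (0.81), Il10ra (0.97) and Il1a (-0.74) were within 2-fold, and Il1rl1 and Il18bp were not. Without scaling, 335 genes of the whole array were at least 2-fold higher and 92 lower, where the scaled values gave 256 and 164.

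Ligands and receptors differed in how often they could be measured and in where their ratios were. Among the 39 ligand genes 18 were measured on both arrays, and their ratios ran from -1.30 to 0.65 with a median of -0.25. Of these, 11 were below the median of all genes and 7 above it. The IL-1 family gave 10 of the 18, with a median of -0.48, and 8 of its genes were below the median of all genes. The measured ligands outside this family were Il28 (-0.46), Il17d (-0.22), Il11 (-0.19), Il27 (-0.05), Il16 (-0.01), Il7 (-0.01), Il12a (0.02) and Il15 (0.65). Among the 42 receptor genes 34 were measured, with ratios from -0.46 to 2.26 and a median of 0.09, and 22 of them were above the median of all genes. At a fold of 1.5, 9 receptors and 1 ligand were higher (3.79% of all genes), and 3 ligands and 0 receptors were lower (4.82% of all genes). Without Il1rl1 and Il18bp the receptor median was 0.04 over 32 genes. Because RNA came from whole skin, fewer cells of a type and less RNA per cell cannot be told apart for any of these genes.

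**Figure D1:**
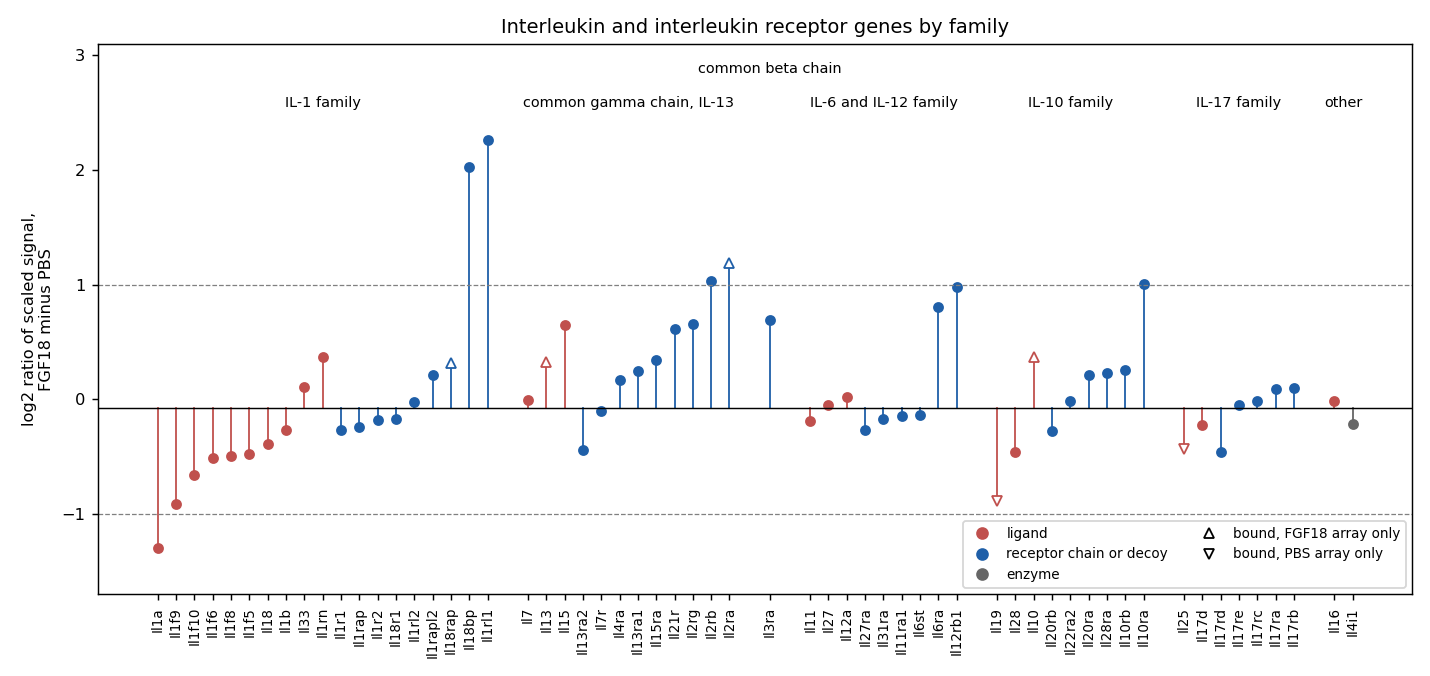
Log2 ratio of scaled signal, FGF18 minus PBS, for the 53 interleukin and interleukin receptor genes measured on both arrays (circles) and the bounds of the 6 measured on 1 array only (open triangles), grouped by family. The solid line is the median of all genes (-0.07) and the dashed lines mark a 2-fold difference; Il1rl1 (2.26) and Il18bp (2.03) stand highest and Il1a (-1.30) lowest.

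**Figure D2:**
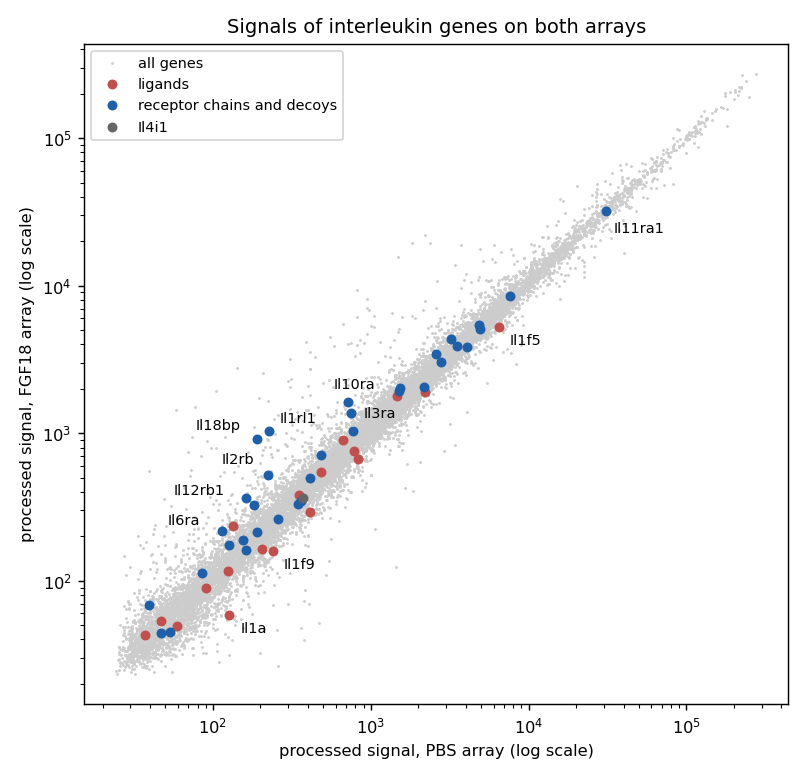
Processed signal on the FGF18 array against that on the PBS array, both axes on a log scale, for all 16611 measured genes (grey) and the 53 measured members. Il1rl1, Il18bp, Il2rb and Il12rb1 lie above the band of grey points and Il1a below it, while Il11ra1, at the upper right, lies within the band.

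Il1rl1 had the highest ratio of the members, and its probes did not behave alike. The gene encodes the receptor of IL-33 and, from a shorter transcript, a soluble form that captures IL-33 as a decoy. A probe for the record of transcript variant 2, the short form, had a signal of 1710 after FGF18 and 53.8 after PBS, a log2 ratio of 4.81 or 28.0-fold. Another probe for the same record had 48.4 after FGF18 and 9.12 after PBS, the latter not well above background, which is at least 1.76-fold higher. The probe for variant 1, the membrane receptor, had 372 and 400, a log2 ratio of -0.29. Thus both probes for the record of the short form were higher on the FGF18 array and the probe for the record of the long form was not. They are called short-form and long-form probes after these records. Probe sequences were not available, so whether each probe reads a single transcript was not tested. By the files' own probe positions the short-form probes lay 17.2 and 23.6 kb before the long-form probe. The gene's ratio of 2.26 (4.79-fold) is the mean of 4.81 and -0.29, and describes neither probe. Il33, the ligand of this receptor, had signals of 1790 and 1460 and a ratio of 0.11. Il1rap, the accessory chain that the receptors of IL-1, IL-33 and IL-36 share, had a ratio of -0.24, from probes at -0.25 and -0.23. Another probe of Il1rap had 34.5 after FGF18 and 12.7 after PBS, the latter not well above background, which is at least 1.26-fold higher. With probes measured on only 1 array included, the ratio of Il1rap was 0.26.

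Il18bp, the gene of a secreted protein that binds IL-18 and keeps it from its receptor, was 4.08-fold higher on the FGF18 array. One of its probes had signals of 1260 and 243 and the other 571 and 138, with log2 ratios of 2.19 and 1.87, so that both probes moved alike. Its target Il18 was printed as 10 spots, with a mean signal of 1896 ± 82.0 after FGF18 and 2193 ± 97.2 after PBS (SD over spots of 1 array). The spots' log2 ratio was -0.39 ± 0.026, and 0 of 10 spots were higher on the FGF18 array after scaling. The receptor chain Il18r1 had 261 and 259, a ratio of -0.17. Its partner Il18rap was measured on the FGF18 array only, with 34.3 against 19.1, at least 1.25-fold higher, where "at least" sets the signal against the lowest signal well above background on the other array (24.2 for PBS and 23.3 for FGF18) or the probe's own, if higher. Of the 610 genes measured on the FGF18 array only, 20.8% had a bound of at least 2-fold.

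The 2 genes with the highest ratios are shown with the 250 bases before their annotated starts, so that members with like ratios can be compared in sequence. They were searched on both strands for 3 motifs: the core of the interferon-stimulated response element (GAAANNGAA), a STAT site (TTCNNNGAA) and an AP-1 site (TGANTCA); a base may belong to more than 1 of them. Sequences are those of RefSeq on build GRCm38.p6, written 5′ to 3′ on the gene's strand, with matches in capitals. Il1rl1 has 2 annotated starts, chr1:40429320-40429569 (start 1) and chr1:40439379-40439628 (start 2), both on the plus strand, and the sources used here do not say which of them gives which transcript. Il18bp is at chr7:102018233-102018482 on the minus strand. No letters are in capitals here, which says only that these motifs are not in these windows.
Il1rl1 start 1: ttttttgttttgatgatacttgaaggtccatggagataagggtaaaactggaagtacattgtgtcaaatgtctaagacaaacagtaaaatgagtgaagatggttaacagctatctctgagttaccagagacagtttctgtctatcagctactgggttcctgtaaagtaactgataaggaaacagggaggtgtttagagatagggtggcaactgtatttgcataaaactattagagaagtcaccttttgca
Il1rl1 start 2: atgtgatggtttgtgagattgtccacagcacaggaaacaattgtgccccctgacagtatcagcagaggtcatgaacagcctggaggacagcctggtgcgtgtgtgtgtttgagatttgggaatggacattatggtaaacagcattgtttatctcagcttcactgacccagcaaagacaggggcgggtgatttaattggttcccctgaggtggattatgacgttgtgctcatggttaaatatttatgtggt
Il18bp: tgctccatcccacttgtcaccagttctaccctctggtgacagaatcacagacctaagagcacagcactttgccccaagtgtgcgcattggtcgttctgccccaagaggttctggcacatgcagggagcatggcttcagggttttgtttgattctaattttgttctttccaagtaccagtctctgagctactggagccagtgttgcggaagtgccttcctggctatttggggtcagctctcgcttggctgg
Over all 32851 promoters of the table, the interferon-response core was in 7.13%, the STAT site in 7.02% and the AP-1 site in 6.75%. Of 81 promoters of 66 members with an entry, they were in 4, 8 and 14.

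The other IL-1 receptor genes had ratios close to the median of all genes. Il1r1, the signalling receptor of IL-1, had 3860 and 4100 (-0.27), and the decoy receptor Il1r2 had -0.18 with probes at -0.31 and -0.05. Il1rl2, the receptor of the IL-36 proteins, had 5440 and 4870, a ratio of -0.02. Its other probe had 29.8 after FGF18 and 18.8 after PBS, the latter not well above background, which is at least 1.09-fold higher. With that probe included, the ratio of Il1rl2 was 0.23. Il1rapl2, a relative of the accessory chain, had 0.21, and Il1rapl1 was not well above background on either array. In the RefSeq order of chromosome 1, Il1r2, Il1r1, Il1rl2, Il1rl1, Il18r1 and Il18rap are direct neighbours, and apart from Il1rl1 the 4 of them with a ratio were between -0.27 and -0.02.

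**Figure D3:**
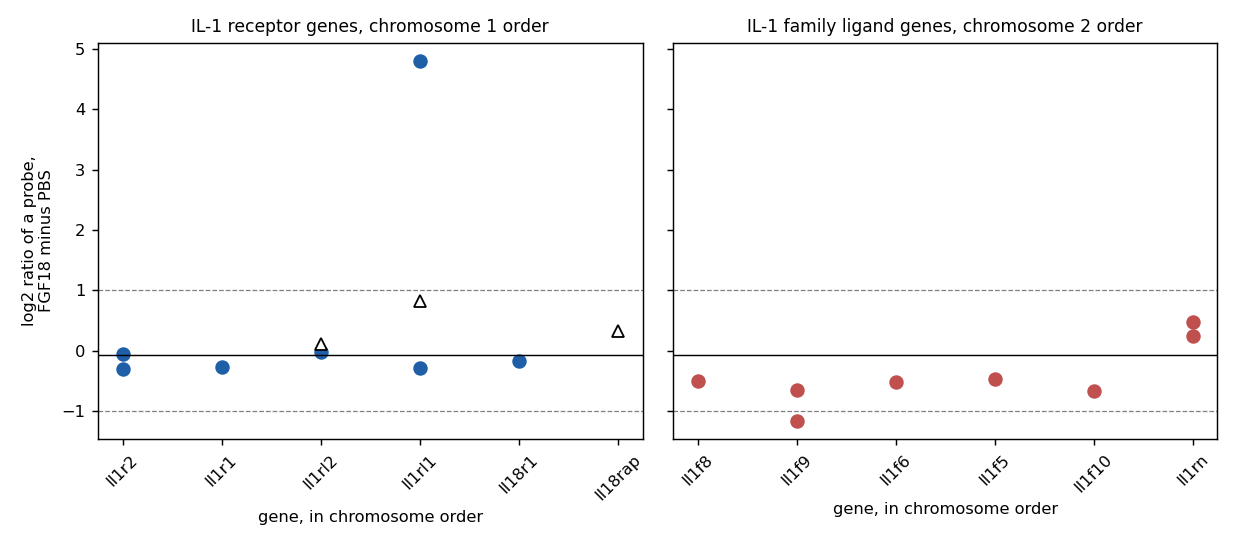
Log2 ratio of each probe, FGF18 minus PBS, for the 6 neighbouring IL-1 receptor genes of chromosome 1 (left) and the 6 neighbouring IL-1 family ligand genes of chromosome 2 (right), in chromosome order. Circles are probes measured on both arrays, open triangles are bounds of probes measured on the FGF18 array only, and probes measured on neither are left out; the short-form probe of Il1rl1 stands at 4.81 while the remaining circles of its neighbours are near the solid line, the median of all genes.

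The IL-1 family ligands were the family with the lowest median, -0.48 over 10 of 10 measured genes, of which 8 were below the median of all genes. Il1a, the gene of IL-1α, an alarm signal held in keratinocytes, was the lowest of the members: its probe had 58.5 after FGF18 and 127 after PBS, 2.46-fold lower. The other probe of Il1a had 33.0, not well above background, against 90.9, at least 3.12-fold lower. Both probes thus lay lower on the FGF18 array. Il1b, the gene of the IL-1β that inflammasomes set free, was read by 6 usable spots with 117 ± 10.1 and 124 ± 14.2 and a log2 ratio of -0.27 ± 0.19 (SD over spots), and 0 of 6 spots were higher after scaling.

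The IL-36 and IL-38 genes were lower on the FGF18 array by less than 2-fold. Il1f9 (IL-36γ, made by activated keratinocytes) was 1.88-fold lower, with probes of 251 and 349 (-0.66) and of 66.5 and 132 (-1.17). Il1f10 (IL-38, an antagonist-like member) had 294 and 410, a ratio of -0.66. These were the 2 members that joined Il1a at 1.5-fold lower. Il1f6 (IL-36α) had 163 and 205, a ratio of -0.51. Il1f8 (IL-36β) had 665 and 827, a ratio of -0.50, and Il1f5, the antagonist of the IL-36 receptor, had 5280 and 6460, a ratio of -0.47. The agonists and the antagonist of this receptor therefore had ratios of the same sign. Together with Il1a, these 6 genes ran from -1.30 to -0.47 with a median of -0.59, and they were grouped with their values known. Marker lists of resident skin cells also had medians below that of all genes. The 4 keratinocyte markers had a median of -0.22, from Krt10 (-0.39) to Krt14 (0.02), with signals summing to 505900 and 498100. Such sums, here and below, take each listed gene's brightest probe on each array, before scaling and without the background filter. The FGF18 array had the higher 75th percentile signal (1020 against 899), so sums and scaled ratios can differ in direction. The 7 hair follicle markers had a median of -0.63, from Tchh (-1.07), the 1 at least 2-fold lower, to Krt35 (0.07), with sums of 220000 and 265500. All 5 dermal fibroblast markers were below the median of all genes, from Col1a2 (-0.75) to Pdgfra (-0.19), with a median of -0.60 and sums of 486100 and 544900. The part of any of these cell types in the ligand values was not tested. Il1rn, the antagonist of the IL-1 receptor, is the next neighbour of Il1f10 and went the other way, with probes of 1740 and 1290 (0.25) and of 68.0 and 42.9 (0.48). Of the IL-1 family ligands, Il1rn and Il33 alone had a ratio above the median of all genes.

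The same windows of Il1a, Il1f8 and Il1f9 are shown as examples of IL-1 family ligands whose window holds a match. Matches also occurred in other ligands of the family: Il1f5 (-0.47) has a STAT match 98 bases before its start, and Il1rn, which had a higher ratio (0.37), an AP-1 match 141 bases before its start. Il1a lies at chr2:129309973-129310222 on the minus strand and has an AP-1 match 12 bases before its start. Il1f8 lies at chr2:24152922-24153171 on the plus strand with an AP-1 match 236 bases before its start, and Il1f9 at chr2:24186226-24186475 on the plus strand with a STAT match 128 bases before its start. A match is a description of letters and not a measured binding site.
Il1a: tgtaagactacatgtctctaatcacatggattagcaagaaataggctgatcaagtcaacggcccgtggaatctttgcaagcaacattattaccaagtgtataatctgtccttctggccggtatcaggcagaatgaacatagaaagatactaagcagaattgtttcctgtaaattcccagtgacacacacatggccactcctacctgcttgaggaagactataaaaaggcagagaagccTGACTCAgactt
Il1f8: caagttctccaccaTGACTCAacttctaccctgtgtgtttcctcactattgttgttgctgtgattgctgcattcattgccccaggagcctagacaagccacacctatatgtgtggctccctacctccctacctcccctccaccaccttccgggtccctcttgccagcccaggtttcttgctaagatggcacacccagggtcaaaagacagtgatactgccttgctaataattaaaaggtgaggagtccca
Il1f9: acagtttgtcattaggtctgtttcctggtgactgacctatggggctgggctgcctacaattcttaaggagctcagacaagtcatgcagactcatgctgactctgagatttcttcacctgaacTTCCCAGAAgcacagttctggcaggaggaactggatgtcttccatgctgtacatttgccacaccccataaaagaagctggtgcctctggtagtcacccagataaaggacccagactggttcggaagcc

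Receptors of the common gamma chain group, counted here with the IL-13 receptors, had a median ratio of 0.30 over 8 measured genes of 10, and 6 were above the median of all genes. Il2rb, the chain that receives IL-2 and IL-15 on NK and T cells, had 520 and 224, 2.05-fold higher. Il2rg, the common gamma chain itself, had 325 and 182, 1.57-fold higher. Il2ra, which gives the IL-2 receptor its high affinity, had 1 of 4 probes well above background, on the FGF18 array only, with 62.8 against 20.2, at least 2.29-fold higher, and its other 3 probes were at background on both arrays. Thus the beta and gamma chains of the IL-2 receptor had higher signals after FGF18, the alpha chain rested on 1 probe, and Il2 was not well above background on either array by both of its probes. Il15, which uses the same beta and gamma chains, had probes of 265 and 161 and of 205 and 107, 1.57-fold higher, the highest ratio of the ligands. Il15ra, the chain that presents IL-15 to neighbouring cells, had probes at 0.29 and 0.40.

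Il21r, the receptor of IL-21, had 68.1 and 39.2, 1.53-fold higher, while Il21 was not well above background on either array. Il4ra, shared by IL-4 and IL-13, had 1930 and 1510, a ratio of 0.17, and Il13ra1 had probes at 0.24 and 0.27. The decoy Il13ra2 was lower, with 44.6 and 53.4 (-0.44). Il7r, the receptor of IL-7 and, with a partner, of TSLP, had probes that disagreed: 320 and 211 (0.42) against 31.7 and 42.9 (-0.62). Il7 had 53.0 and 47.0, a ratio of -0.01. Il13 was measured on the FGF18 array only, with 34.5 against 19.7, at least 1.26-fold higher, and Il4, Il9 and Il9r were not well above background on either array.

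Markers of cells that carry these receptors are given beside them. Of 6 NK cell markers, Klrk1 (1.41) and Klrd1 (1.00) had a ratio. Ncr1, Klrc1 and Klrb1c were measured after FGF18 only, at least 3.90-, 1.87- and 1.63-fold higher, and Eomes on neither array. The markers' unscaled sums, over brightest probes as above, were 1212 after FGF18 and 465 after PBS. Of 9 T cell markers, 8 were measured, with a median of -0.22 and a range from -0.68 to 0.38, summed signals of 1728 and 1538, and Cd8a not well above background. The part of a change in NK cells in the receptor values was not tested.

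Il3ra and Il10ra were further receptors with higher signals. Il3ra, the binding chain for IL-3, had 1370 and 749, 1.61-fold higher, while Il3, Il5 and Il5ra were not well above background on either array. Il10ra, the chain that binds IL-10 on leukocytes, had 1640 and 719, 2.01-fold higher, just past the threshold, and the scanner software's error model gave this ratio an error of 0.20 on the log2 scale. Its partner Il10rb, which is shared with the IL-22 and interferon lambda receptors, had 4350 and 3210 (0.26). Il10 itself was printed as 10 spots, of which 8 were usable: they had 35.8 ± 4.80 after FGF18 and 10.1 ± 4.66 after PBS (SD over spots). All 8 were higher on the FGF18 array, of which 6 cleared the background, while 0 did so after PBS, and the bound was at least 1.29-fold higher.

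Other chains of the IL-10 receptor family had smaller ratios. Il28ra, the interferon lambda receptor chain, had 2030 and 1530 (0.23), and Il20ra, which serves IL-19, IL-20 and IL-24 in keratinocytes, had 3440 and 2610 (0.22). Il20rb had probes of 7260 and 6270 (0.03) and of 566 and 748 (-0.58), which lay on opposite sides of the median of all genes. Il22ra2, a soluble decoy for IL-22, had 213 and 190 (-0.02), and Il22ra1 was not well above background on either array. Of the ligands, Il28 had 49.1 and 59.5 (-0.46), although its probe may not separate it from a near-identical interferon lambda gene. Il19 was measured on the PBS array only, with 21.7 after FGF18 against 38.0, at least 1.85-fold lower (of all genes measured after PBS only, 38.3% had a bound of at least 2-fold), and Il20, Il22 and Il24 were measured on neither. Il24, Il20, Il19 and Il10 are neighbours in RefSeq order, and the 2 of them measured, Il19 and Il10, were measured on opposite arrays.

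The IL-6 and IL-12 receptor family had a median of -0.14 over 6 of 8 genes, with Il12rb1 and Il6ra higher than the rest. Il12rb1, which IL-12 and IL-23 share, had 361 and 161, 1.98-fold higher, just below the threshold of 2. Il6ra, the binding chain for IL-6, had probes of 263 and 153 (0.60) and of 174 and 75.7 (1.02), 1.75-fold higher. Il6st, which encodes the signal transducer gp130, had 5100 and 4940 (-0.14). Il11ra1, the receptor chain of IL-11, had 46700 and 45600 on one probe and 17100 and 16700 on the other, both at -0.15, and near-identical copies of this gene in some mouse genomes may share the probes. Il31ra, the receptor of the itch cytokine IL-31, had 162 and 161 (-0.17), and Il27ra had 44.3 and 46.9 (-0.26). Il12rb2 and Il23r, the chains that pair with Il12rb1 for IL-12 and IL-23, were not well above background on either array.

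The ligands of this family were dim. Il12a, the p35 chain of IL-12, had 43.0 and 37.3 (0.02), Il27 had 382 and 349 (-0.05) and Il11 had 89.5 and 89.9 (-0.19). Il12b, Il23a and Il31 were not well above background on either array. Il6 was read by 9 usable spots with 28.3 ± 3.38 after FGF18 and 16.7 ± 2.73 after PBS (SD over spots). All 9 were higher on the FGF18 array, but 3 cleared the background there and 0 after PBS, so that the gene counts as measured on neither.

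**Figure D4:**
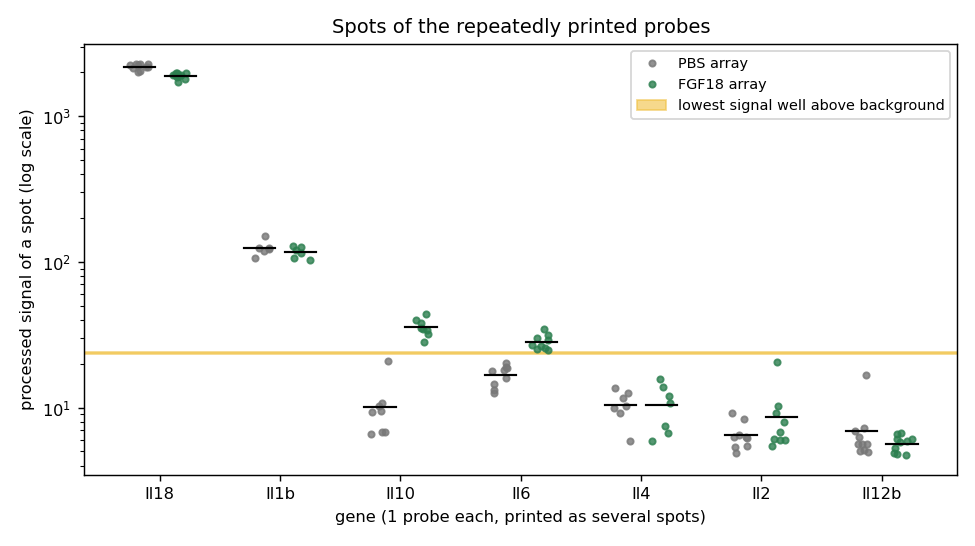
Processed signal of every usable spot (log scale) for the 7 members whose probe was printed as 10 spots, on the PBS array (grey) and the FGF18 array (green), with the mean as a black line; spots of an array are technical repeats of 1 RNA sample. Signals are shown before scaling. The spots of Il10 and Il6 lie around or above the yellow band, the lowest signal well above background, in the FGF18 columns and below it in the PBS columns, while those of Il4, Il2 and Il12b are below it on both.

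The IL-17 family had its receptors measured and its ligands mostly not. All 5 receptor chains were measured, with a median of -0.01. Il17ra, the chain common to the family, had probes at 0.06 and 0.12, and Il17rc, its partner for IL-17A and IL-17F, had probes of 11700 and 10600 (-0.04) and of 5270 and 4590 (0.02). Il17rb, the receptor of IL-25, had 189 and 156 (0.10), and Il17re, the receptor of IL-17C, had 3050 and 2780 (-0.05). Il17rd, which is also known as Sef, an inhibitor of FGF receptor signalling, had the lowest ratio of all receptors, -0.46, from probes of 633 and 649 (-0.22) and of 30.0 and 42.9 (-0.70). A further probe, which the array names differently and RefSeq assigns to Il17rd, had 1650 and 1420 (0.03), so that the 3 probes lay on both sides of the median of all genes. Of the ligands, Il17d had 759 and 780 (-0.22), Il25 was measured on the PBS array only, with 22.3 against 27.7, at least 1.35-fold lower, and Il17a, Il17b, Il17c and Il17f were measured on neither.

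Among the remaining genes, Il16, a chemoattractant for CD4-bearing cells, had 546 and 485 (-0.01), and the oxidase gene Il4i1 had 365 and 374 (-0.22).

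Genes that work with the interleukin receptors were read from lists of partners and downstream steps. Of 11 measured receptor partners, 0 were at least 2-fold higher or lower, and the median was -0.08. The highest was Crlf2, the TSLP receptor chain (0.40), and the lowest Cntfr, the receptor of ciliary neurotrophic factor (-0.98). Of 10 reported JAK and STAT genes, 0 were past 2-fold. Stat4, the STAT that IL-12 receptors use, was the highest, with 69.0 and 37.5 (0.70). Stat3, which IL-6, IL-10 and IL-22 receptors use, was the lowest, with 2082 and 2591 (-0.77) and probes at -1.05 and -0.49. Among 10 measured feedback genes 0 were past 2-fold; Socs3, which is induced by STAT3 and restrains gp130, had 4440 and 3350 (0.22), Ptpn6 was highest (0.34) and Socs2 lowest (-0.41).

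The steps of the IL-1 and IL-17 receptors likewise held no gene past 2-fold. Over 20 measured adaptors and NF-κB genes the median was -0.02, with Irak2 highest (0.80) and Irak4 lowest (-0.64), and Myd88, the adaptor of IL-1 family receptors, had 3005 and 2126 (0.32). Of 7 measured genes that process IL-1 family precursors, the median was 0.08. Gsdmd, which forms the pore through which IL-1β leaves a cell, was highest (0.70), and Ctsg, a mast cell and neutrophil protease, lowest (-0.24).

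The products typical of type 1, type 2 and IL-17 or IL-22 responses differed in their ratios. All 6 measured genes of the type 1 list were at least 2-fold higher, with a median of 2.44: the cytotoxic granule genes Gzmb (4.44) and Prf1 (1.74), the chemokines Cxcl10 (2.92), Ccl5 (2.70) and Cxcl9 (2.18), and the transcription factor Tbx21 (1.38). Ifng, which encodes interferon gamma, was measured on the FGF18 array only, with 68.0 against 17.7, at least 2.37-fold higher. Cxcl11 (at least 26.3-fold) and Fasl (at least 1.73-fold) were also measured on that array only. Of 11 measured genes of the type 2 list, which IL-4 and IL-13 induce, 1 was higher, the eosinophil chemokine Ccl11 (1.30), and 2 were lower, Arg1 (-1.36) and Retnla (-1.14), and the median was -0.55. Of 7 measured genes of the IL-17 and IL-22 list 3 were higher, Saa3 (3.65), S100a8 (1.82) and Slpi (1.30), while the median was 0.00 and Ccl20 was lowest (-0.55). Lcn2 (at least 1.51-fold higher) and Cxcl1 (at least 1.37-fold higher) were measured on the FGF18 array only, and 4 genes of this list on neither. S100a8 is also a neutrophil marker; its partner S100a9, in the same lists, had 1640 and 1830 (-0.34). Over the 4 neutrophil markers of 8 with a ratio the median was 0.28, with Csf3r at 0.89 and Cxcr2 at -0.61. Retnlg and Ngp were not well above background, and the unscaled sums over brightest probes were 2965 and 2269. The part of neutrophils in these values was not tested. Macrophage markers had a median of -0.09 over 6 of 6, from Mrc1 (-0.70) to Itgam (0.99), with unscaled sums of 11440 and 11730. The type 1 list was chosen with these values known, and its counts are a description.

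**Figure D5:**
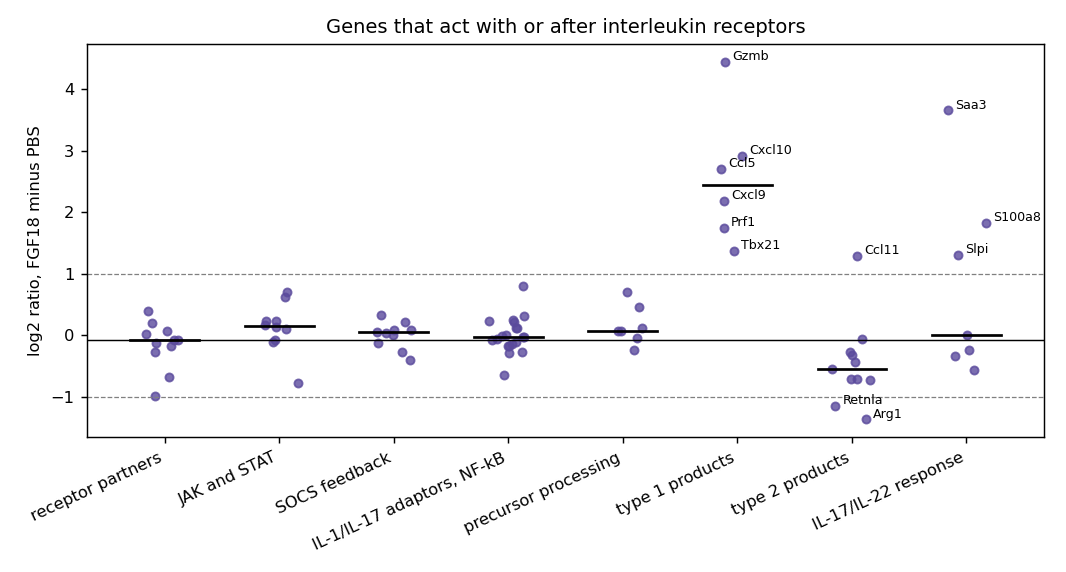
Log2 ratio, FGF18 minus PBS, of the measured genes of 8 lists of steps that act with or after interleukin receptors; each point is a gene, the thick bars are list medians, the thin line is the median of all genes (-0.07) and the dashed lines mark a 2-fold difference. Genes past 2-fold are named; the type 1 list has a median of 2.44 and the type 2 list one of -0.55.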

How the data were processed

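Per the file headers, the 2 deposited scanner files were made with Agilent Feature Extraction 9.5.3.1 and hold spot intensity values; the processed signal is background-subtracted and detrended, with a surrogate near background. The deposited series table holds a ratio: compared with the scanner output, its columns equal the processed signal over the array's median (83.8 for FGF18, 80.0 for PBS), to within 0.0072 on the log2 scale, with column medians of 1.00 and 0.999; the sources used here give no further scaling. Flags and spot types were other columns, per the file headers.

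Log2 processed signals were scaled to each array's 75th percentile. Control and outlier-flagged spots were left out, repeat spots were averaged per probe, and a probe was measured where at least 0.5 of its spots were well above background. Ratios of a gene's probes were averaged. Both arrays lay on 1 slide and in 1 scan. Groups came from the source names. No test was possible with 1 array per group. Members' names came from RefSeq GRCm38.p6 by accession (99 probes) or symbol (24). Every member was named in the text; of lists, genes past 2-fold, the highest and the lowest, and the usual readouts Stat3, Socs3 and Myd88; 1 gene of the JAK and STAT list is not reported here. The members, lists and motifs were chosen with earlier results of these data known. The steps were tested on simulated data over 16611 genes, where 200 of 200 changed genes were recovered. All changes put in were larger than 2-fold, and the noise was smaller than the spread between probes of a gene. The simulated ratios were also centred on their median, unlike the real ones. This recovery therefore checks the steps only, and says nothing about genes near the 2-fold threshold. R 4.3.3 with limma 3.58.1 and Python 3.11.15 were used. Alternatives were other scalings, background correction (normexp, offset 50), filters on dim probes, probe rules, the series table, flagged spots kept, and thresholds.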

Additional observations from a re-analysis of the deposited data

How the results depend on the processing

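Over 13 other settings, Il18bp was at least 2-fold higher in 13, Il10ra and Il2rb in 12 each, Il12rb1 in 6, and Il1a was at least 2-fold lower in 11 of the 12 that gave it a value. Il10ra, Il2rb and Il12rb1 were each read by 1 probe, so the filters and probe rules could only return their main values. The other scalings and the series table set the median of all genes higher, from -0.04 to 0.11, and so raised these ratios. The counts are therefore no measure of how firm these ratios are. Il1rl1 was at least 2-fold higher in 11 and had a ratio of -0.29 with its brightest probe and with signals over 100 on both arrays, both of which read the long-form probe alone. Without scaling, which moved the median of all genes to 0.11, the ligand median was -0.064 and the receptor median 0.28. With normexp, 2 of 53 members were at least 2-fold higher and 0 lower, against 167 and 68 of 16611 genes. Without a filter on dim probes 2 of 82 members were lower, against 897 of 27577 genes. With signals over 100, 0 of 44 members were lower, against 70 of 13943 genes. At a threshold of 1.5-fold 10 of 53 members were higher (3.79% of all genes) and 3 lower (4.82% of all genes). At 3-fold 2 were higher and 0 lower, and the share of all genes at that fold was not counted. Leaving out scaling adds the same amount to every ratio. Apart from this and the probes named for Il1rl1, the cause of these moves was not tested. Of the values of single members, counting the added Il17rd value that follows, 588 stayed within the spread between probes (0.13), 91 moved further and 2 were turned. Every value without scaling was among those that moved, because the amount added to each was larger than this spread. A change of sign was counted as turned only for members at least 2-fold higher or lower in the main setting. Members with smaller ratios changed sign too: Il1rl2 kept its sign in 5 of 13 settings, and Il22ra2 and Il17rc in 6 of 13. With the further probe, an alternative chosen after seeing the data, Il17rd had -0.29. No paired analysis was possible because each group had 1 array. Signals near the floor of 23.3 and 24.2 limit what the dim ligands can show.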

Other observations

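Of the interleukin genes that the array names in another way, Il34, a ligand of the macrophage growth factor receptor, had signals of 2380 after FGF18 and 2440 after PBS, a log2 ratio of -0.22. Il1bos, a transcript antisense to Il1b, had 8.29 and 15.8 and was not well above background on either array.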
